A study of Mus musculus with 6 samples.

Results

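The genes that arm neutrophils and monocytes were examined in the chromatin of hematopoietic stem cells: S100a8, S100a9, Camp, Ngp, Ltf, Mpo, Elane, Prtn3, Ly6c2 and Ctsg. They are listed by symbol, with no value of these libraries in the rule, and 10 of 10 matched the mm10 gene table of 49554 genes, 21631 of them protein-coding. Every peak that overlapped one of these genes, or the 10 kb on either side of it, was taken from 6 ATAC-seq peak lists. ATAC-seq marks open DNA by where the Tn5 transposase can cut it. The cells were sorted from bone marrow as Lin-Sca-1+c-Kit+CD48-CD150+ hematopoietic stem cells. All mice were of strain C57BL/6 and, by their labels, 12 weeks (3 months) old, with both Dek alleles flanked by loxP sites. The 3 Dek_cKO libraries came from Dekfl/fl,Tie2-Cre mice, and the 3 Dek_fl libraries from Dekfl/fl mice with no Cre named. The design text speaks of duplicates, whereas 3 libraries per group were labelled. Tie2-Cre is driven by control DNA of Tek and is active in endothelial as well as blood cells. The labels do not say which libraries came from separate animals, so p-values measure the spread between libraries, which may be technical.

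Neutrophils carry their weapons in granules that are filled in order as the cell matures. Primary granules, made at the promyelocyte stage, hold myeloperoxidase and the serine proteases neutrophil elastase, proteinase 3 and cathepsin G. Secondary granules, filled later, hold lactoferrin, cathelicidin and neutrophilic granule protein, while calprotectin, the pair of S100A8 and S100A9, fills the cytosol. In bone marrow these genes are known for strong expression driven by C/EBP factors and PU.1, for the primary granule genes from the granulocyte-monocyte progenitor onward. They are products of committed cells rather than of stem cells.

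The libraries labelled Dek_cKO held 70756, 73173 and 27170 peaks in replicates 1, 2 and 3, against 52451, 71555 and 23813 in Dek_fl. Replicate 3 of both groups was made with another threshold: its lowest −log10 p was 5.02 in Dek_cKO and 5.07 in Dek_fl, against 2.87 to 3.13 in the other 4 lists. The number of reads behind a peak is unknown, and a region without a peak is not shown to be closed. Of 12 stem cell marker genes, all 12 had a peak within their gene or 10 kb of it in every library. A peak lay within 1 kb of either gene end for 11, 11 and 6 of them in Dek_cKO replicates 1, 2 and 3 and for 11, 12 and 3 in Dek_fl. Over all protein-coding genes this share was 67.4%, 67.6% and 52.0% in Dek_cKO and 63.6%, 67.7% and 51.4% in Dek_fl. At Tek, an endothelial and stem cell gene, the −log10 p of the gene-end peak was 32.9, 20.5 and 8.59 in Dek_cKO and 260, 576 and 56.6 in Dek_fl replicates 1, 2 and 3. The folds were closer, at 7.56, 5.98 and 5.87 in Dek_cKO and 7.87, 8.19 and 8.72 in Dek_fl. The peaks began at 94738953, 94738664 and 94739066 in Dek_cKO and at 94737560, 94737578 and 94737716 in Dek_fl. By both measures the stronger peaks belonged to the group labelled without Tie2-Cre, although that transgene carries control DNA of Tek. Whether the labels were exchanged was not tested. Dek_cKO and Dek_fl here mean libraries so labelled, and each direction between them would turn if the labels were exchanged.

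The promoter sequences at which the libraries differed most in their calls (Camp, Ly6c2 and S100a8) are shown first, with those of Ctsg and Mpo. Camp and Ly6c2 were called in Dek_cKO libraries only, and S100a8, Ctsg and Mpo in both groups. Each covers 250 bases before and 50 bases from the annotated start, taken from RefSeq on GRCm38.p6 (mm10) and read 5′ to 3′ on the gene's own strand. Capitals mark matches, on either strand, to 3 short motifs: TTNNGCAA for C/EBP, GAGGAAG for PU.1 and TGTGGT for RUNX. The windows lie at chr9:109849407-109849706 on the minus strand (Camp), chr15:75111922-75112221 on the minus strand (Ly6c2, first start), chr3:90668821-90669120 on the plus strand (S100a8), chr14:56102525-56102824 on the minus strand (Ctsg) and chr11:87793534-87793833 on the plus strand (Mpo).
Camp: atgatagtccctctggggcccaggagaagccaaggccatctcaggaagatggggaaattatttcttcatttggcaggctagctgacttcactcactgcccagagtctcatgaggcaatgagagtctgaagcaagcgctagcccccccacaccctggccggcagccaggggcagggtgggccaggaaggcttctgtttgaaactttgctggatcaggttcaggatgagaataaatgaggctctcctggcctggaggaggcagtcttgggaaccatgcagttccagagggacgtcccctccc
Ly6c2: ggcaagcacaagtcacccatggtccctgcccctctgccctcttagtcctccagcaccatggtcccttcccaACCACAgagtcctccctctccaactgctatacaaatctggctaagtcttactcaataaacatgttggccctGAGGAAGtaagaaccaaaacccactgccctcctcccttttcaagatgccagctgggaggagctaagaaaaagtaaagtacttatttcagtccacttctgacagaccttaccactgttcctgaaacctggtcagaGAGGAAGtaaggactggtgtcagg
S100a8: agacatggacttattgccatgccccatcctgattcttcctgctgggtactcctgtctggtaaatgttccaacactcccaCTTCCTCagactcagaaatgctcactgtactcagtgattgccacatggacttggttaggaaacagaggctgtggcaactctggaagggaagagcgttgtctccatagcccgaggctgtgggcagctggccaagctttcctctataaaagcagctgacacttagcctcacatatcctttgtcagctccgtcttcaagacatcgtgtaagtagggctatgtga
Ctsg: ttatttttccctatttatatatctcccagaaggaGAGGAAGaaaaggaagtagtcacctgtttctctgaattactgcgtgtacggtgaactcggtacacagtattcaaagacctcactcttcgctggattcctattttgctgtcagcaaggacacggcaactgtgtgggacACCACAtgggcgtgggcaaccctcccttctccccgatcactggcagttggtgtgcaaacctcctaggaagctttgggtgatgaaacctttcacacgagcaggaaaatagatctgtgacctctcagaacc
Mpo: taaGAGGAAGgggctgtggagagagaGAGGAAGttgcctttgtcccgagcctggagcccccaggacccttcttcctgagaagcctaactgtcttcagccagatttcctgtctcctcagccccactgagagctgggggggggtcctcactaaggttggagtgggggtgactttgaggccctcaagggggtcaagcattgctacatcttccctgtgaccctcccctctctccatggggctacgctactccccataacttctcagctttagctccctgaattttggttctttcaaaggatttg
All 10 members had a listed promoter, with 2 overlapping windows for Ly6c2. The PU.1 letters were found in the promoters of 6 of the 10 members (S100a8, Mpo, Elane, Prtn3, Ly6c2 and Ctsg), against 15.1% of 17274 protein-coding genes with a listed start. The RUNX letters were found in 4 members (S100a9, Ltf, Ly6c2 and Ctsg), against 17.0% of genes. The C/EBP letters were found in 3 (S100a9, Ngp and Ltf), against 11.8%. No motif match overlapped another of a different kind in the printed windows. The Camp promoter, where peaks were called in Dek_cKO libraries only, held none of the 3. A match is a description of the letters and not a bound site.

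In the deposited lists, calls at the starts of these genes were few, while calls in their wider windows were not. A peak lay within 1 kb of an annotated start for 6, 4 and 3 of the 10 members in Dek_cKO replicates 1, 2 and 3 and for 3, 4 and 0 in Dek_fl. Over all protein-coding genes with a listed start, the share was 67.2%, 67.5% and 54.6% in Dek_cKO and 64.0%, 67.4% and 54.0% in Dek_fl. In every library the members' share at the start was below that of all genes. The starts of Ngp, Elane and Prtn3 were called in 0 of the 6 libraries. No library called more than 67.5% of all starts, and the share of all starts called in none was not counted. This count is therefore not read as a trait of these genes. In the wider windows, a peak was present for 9, 8 and 9 members in Dek_cKO and for 5, 6 and 8 in Dek_fl. Of 13010 protein-coding genes of at most 25 kb, a length that covers all 10 members, 73.1%, 73.2% and 60.2% had such a peak in Dek_cKO and 70.2%, 73.0% and 59.3% in Dek_fl. By this wider measure the members' share was above that of such genes in the 3 Dek_cKO libraries and in Dek_fl replicate 3. It was below that share in Dek_fl replicates 1 and 2. In lists of equal length, given below, it was below that share in Dek_cKO replicates 1 and 2 as well.

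**Figure D1:**
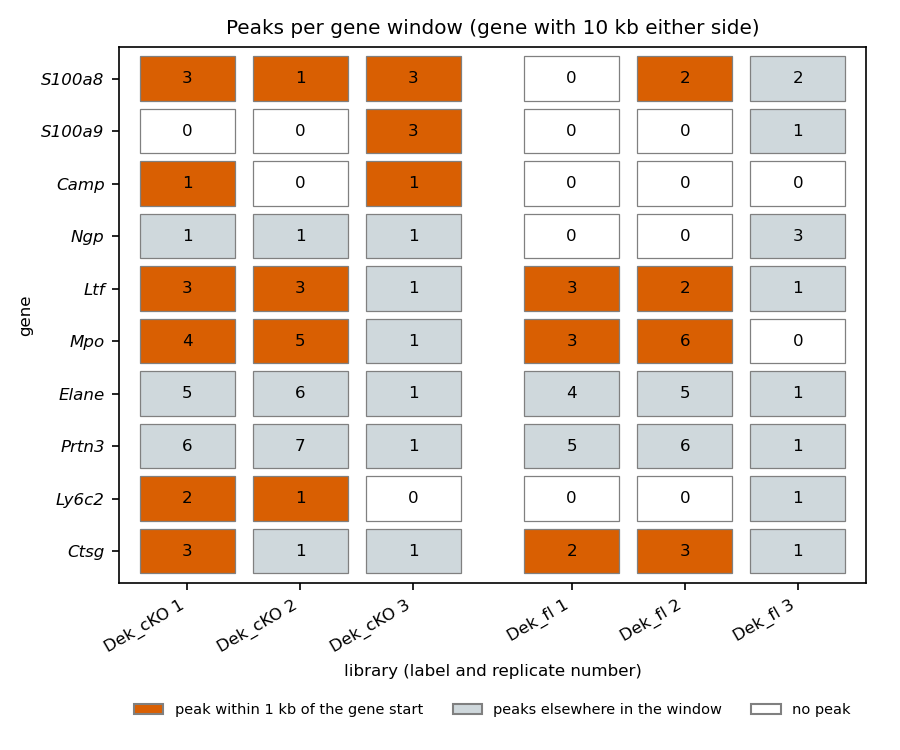
Number of called peaks in the window of each gene (the gene with 10 kb either side), one column per library, with cells coloured where a peak lies within 1 kb of the start. Orange cells number 6, 4 and 3 in the Dek_cKO columns and 3, 4 and 0 in the Dek_fl columns, and the rows of Ngp, Elane and Prtn3 have none.

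**Figure D2:**
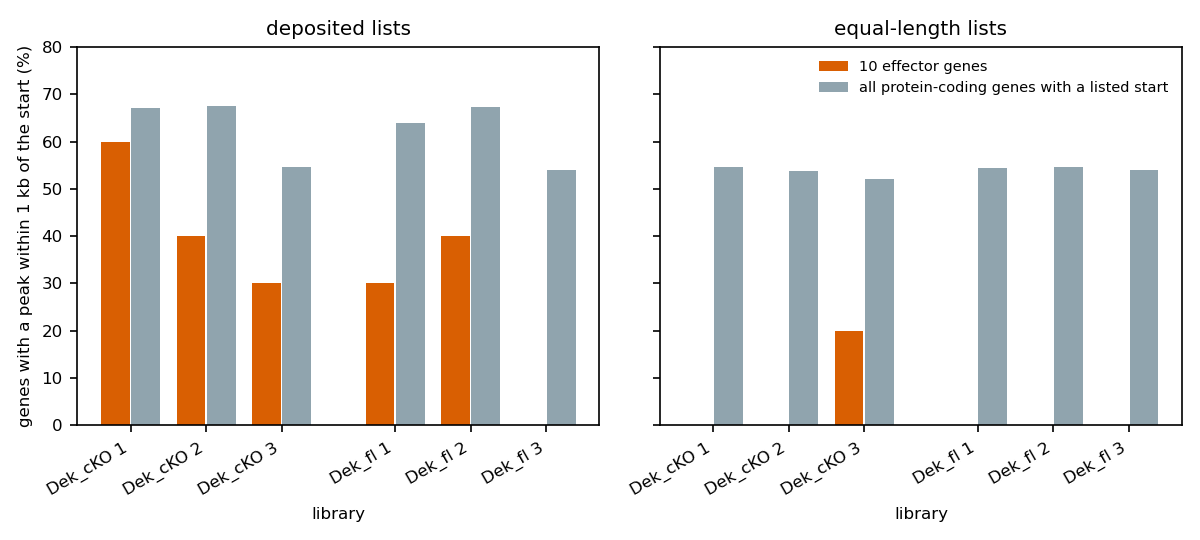
Percent of genes with a peak within 1 kb of a start, for the 10 effector genes (orange) and for all protein-coding genes with a listed start (grey), per library. The left panel uses the deposited lists and the right panel lists of equal length, in which the orange bar is above 0 in Dek_cKO replicate 3 alone.

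Merging peaks that shared at least 1 bp across the 6 lists gave 33 regions in the members' windows, of 84592 regions in all. Only 2 of the 33 (6.06%) were called in every library, against 23.3% of all regions, and 8 (24.2%) were called in a single library, against 16.1%. The windows held 23, 19 and 12 peaks in Dek_cKO replicates 1, 2 and 3 and 13, 19 and 10 in Dek_fl. Most were weak for their list. The median percentile of −log10 p within its list was 29.3, 40.2 and 23.9 in Dek_cKO and 28.9, 28.6 and 33.7 in Dek_fl, where 50 is the middle of a list. The median percentile of fold over local background, a value set by the authors' peak caller, was 22.8, 22.3 and 8.48 in Dek_cKO and 19.3, 22.7 and 12.3 in Dek_fl.

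**Figure D3:**
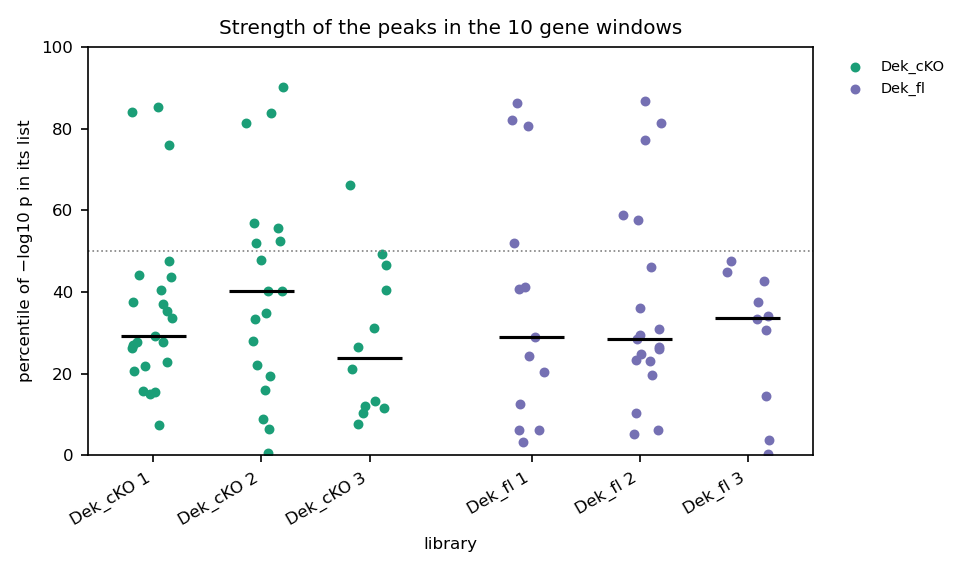
Percentile of −log10 p, within its own list, of every peak in the 10 gene windows, with the Dek_cKO libraries on the left, the Dek_fl libraries on the right and a black line at each median. Medians lie between 23.9 and 40.2, below the dotted line at 50, and a small group of peaks in replicates 1 and 2 lies above 75.

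The calprotectin genes stand for the cytosolic effectors. S100a8 (gene ID 20201, chromosome 3, 90669071 to 90670034, plus strand) encodes a calcium-binding alarmin. A peak at its start was called in all 3 Dek_cKO libraries, with summits at 35, 209 and -51 bp from the start and −log10 p of 9.47, 3.51 and 9.15 in replicates 1, 2 and 3. In Dek_fl it was called in replicate 2 alone, with the summit at 135 bp and a −log10 p of 5.17. These peaks ranked low: by −log10 p they lay at percentiles 20.7, 0.603 and 10.4 of their lists in Dek_cKO and 5.32 in Dek_fl. Folds were 3.75, 2.50 and 4.26 in Dek_cKO and 2.69 in Dek_fl replicate 2. Upstream, a region from 90659270 to 90659923 was called in Dek_cKO replicates 1 and 3 and in Dek_fl replicate 3. Another, from 90664051 to 90664674, was called in Dek_cKO replicate 1 and Dek_fl replicate 2, and one past the gene end, from 90671471 to 90672404, in replicate 3 of both groups.

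S100a9 (gene ID 20202, chromosome 3, 90692630 to 90695721, minus strand) encodes the partner of S100A8. No peak was called in its window in replicate 1 or 2 of either group. In replicate 3 a peak over the end of the gene was called in both groups, from 90691776 to 90692760 in Dek_cKO and from 90691937 to 90692772 in Dek_fl, with −log10 p of 12.6 in Dek_cKO and 18.8 in Dek_fl, at percentiles 26.6 in Dek_cKO and 47.5 in Dek_fl. A further peak at 8733 bp from the start, with a −log10 p of 16.1, was called in Dek_cKO replicate 3. The start itself was called in Dek_cKO replicate 3 only, with a −log10 p of 9.66 and the summit at -85 bp.

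Among the secondary granule genes, Camp alone had its start called in Dek_cKO libraries only, though a region upstream of Ngp was also called in Dek_cKO only. Camp (gene ID 12796, chromosome 9, 109847377 to 109849456, minus strand) encodes the antimicrobial peptide precursor cathelicidin. A peak over its promoter was called in Dek_cKO replicates 1 and 3, from 109849421 to 109849749 and from 109849409 to 109849821, covering 286 and 298 of the 300 printed bases. Their summits lay at -104 and -77 bp, with folds of 4.26 and 6.10, −log10 p of 11.2 and 11.4 and percentiles of −log10 p of 26.4 and 21.1. Dek_cKO replicate 2 and all 3 Dek_fl libraries had no peak in the window of Camp.

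Ngp (gene ID 18054, chromosome 9, 110419808 to 110423012, plus strand) encodes a cathelicidin-related protein of secondary granules. Its start was called nowhere, and its surroundings were called at different places. Dek_cKO replicates 1 and 2 shared a narrow peak at -8141 and -8159 bp, with −log10 p of 14.3 and 13.1 and folds of only 2.64 and 2.76 (percentiles 5.96 and 6.31). Around the end of the gene, from 110422431 to 110424069, peaks were called in replicate 3 of both groups, with a −log10 p of 9.26 in Dek_cKO and 13.6 and 5.68 for 2 adjacent peaks in Dek_fl. Dek_fl replicate 3 alone also had a peak at -4339 bp, and Dek_fl replicates 1 and 2 had none in the window.

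Ltf (gene ID 17002, chromosome 9, 111019292 to 111042766, plus strand) encodes the iron-binding lactoferrin, and its window held the highest −log10 p of all members in replicates 1 and 2 of both groups. A region beyond the end of the gene, between 111045716 and 111047741 and outside any annotated gene, had a peak in each of the 6 libraries, with main summits 27036 to 27122 bp from the start. Its −log10 p was 73.1, 89.8 and 19.2 in Dek_cKO replicates 1, 2 and 3 and 45.0, 78.1 and 17.8 in Dek_fl. Folds were 7.85, 9.84 and 7.88 in Dek_cKO and 6.87, 6.71 and 6.06 in Dek_fl. By percentile of fold these were 84.2, 92.4 and 44.7 in Dek_cKO and 85.9, 81.4 and 25 in Dek_fl, so the groups overlapped. The start of Ltf was called in replicates 1 and 2 of both groups, with −log10 p of 18.1 and 20.6 in Dek_cKO and 11.4 and 27.3 in Dek_fl and summits between -224 and -172 bp. It was called in neither replicate 3 list.

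The serine protease genes Prtn3 and Elane lie next to each other and share most of their windows. Prtn3 (gene ID 19152, chromosome 10, 79879667 to 79883174) encodes proteinase 3 and Elane (gene ID 50701, chromosome 10, 79886312 to 79888216) neutrophil elastase, both on the plus strand. Neither start had a peak within 1 kb, but a region upstream of Prtn3, between 79877066 and 79878411, had a peak in each of the 6 libraries. Its summits lay at -1671, -1687 and -1667 bp from the Prtn3 start in Dek_cKO and at -1589, -1666 and -1593 bp in Dek_fl. The −log10 p was 47.5, 61.8 and 18.1 in Dek_cKO replicates 1, 2 and 3 and 34.9, 59.2 and 17.1 in Dek_fl, at percentiles 76.0, 83.9 and 46.5 in Dek_cKO and 80.6, 81.4 and 42.8 in Dek_fl. By fold the same peaks ranked lower, at percentiles 29.4, 47.3 and 11.4 in Dek_cKO and 52.9, 36.3 and 10.7 in Dek_fl. Replicates 1 and 2 of both groups also had peaks between the genes (79883231 to 79885093), between Elane and the complement factor gene Cfd (79889323 to 79890353), just beyond Cfd (79892821 to 79893756) and at an end of Plppr3 (79874046 to 79874954). The replicate 3 lists had none of these 4. A region in the body of Prtn3, from 79881770 to 79882424, was called in Dek_cKO replicates 1 and 2 and Dek_fl replicate 2.

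Mpo (gene ID 17523, chromosome 11, 87793784 to 87804412, plus strand) encodes myeloperoxidase, the enzyme that makes hypochlorous acid. Its start, which also lies in the body of the long noncoding RNA gene Gm34064, was called in replicates 1 and 2 of both groups. The −log10 p was 13.8 and 15.2 in Dek_cKO and 5.86 and 11.8 in Dek_fl, at percentiles 33.7 and 40.2 in Dek_cKO and 12.6 and 28.6 in Dek_fl. A stronger region lay in the body of the neighbouring lactoperoxidase gene Lpo, from 87811296 to 87812096. It was called in the same 4 libraries, with −log10 p of 68.3 and 54.6 in Dek_cKO and 37.3 and 49.5 in Dek_fl. Its percentiles of fold were 88.1 and 85.5 in Dek_cKO and 90 and 78.6 in Dek_fl, which overlapped. In Dek_cKO replicate 3 the window of Mpo had 1 peak, in Lpo, and in Dek_fl replicate 3 it had 0.

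**Figure D4:**
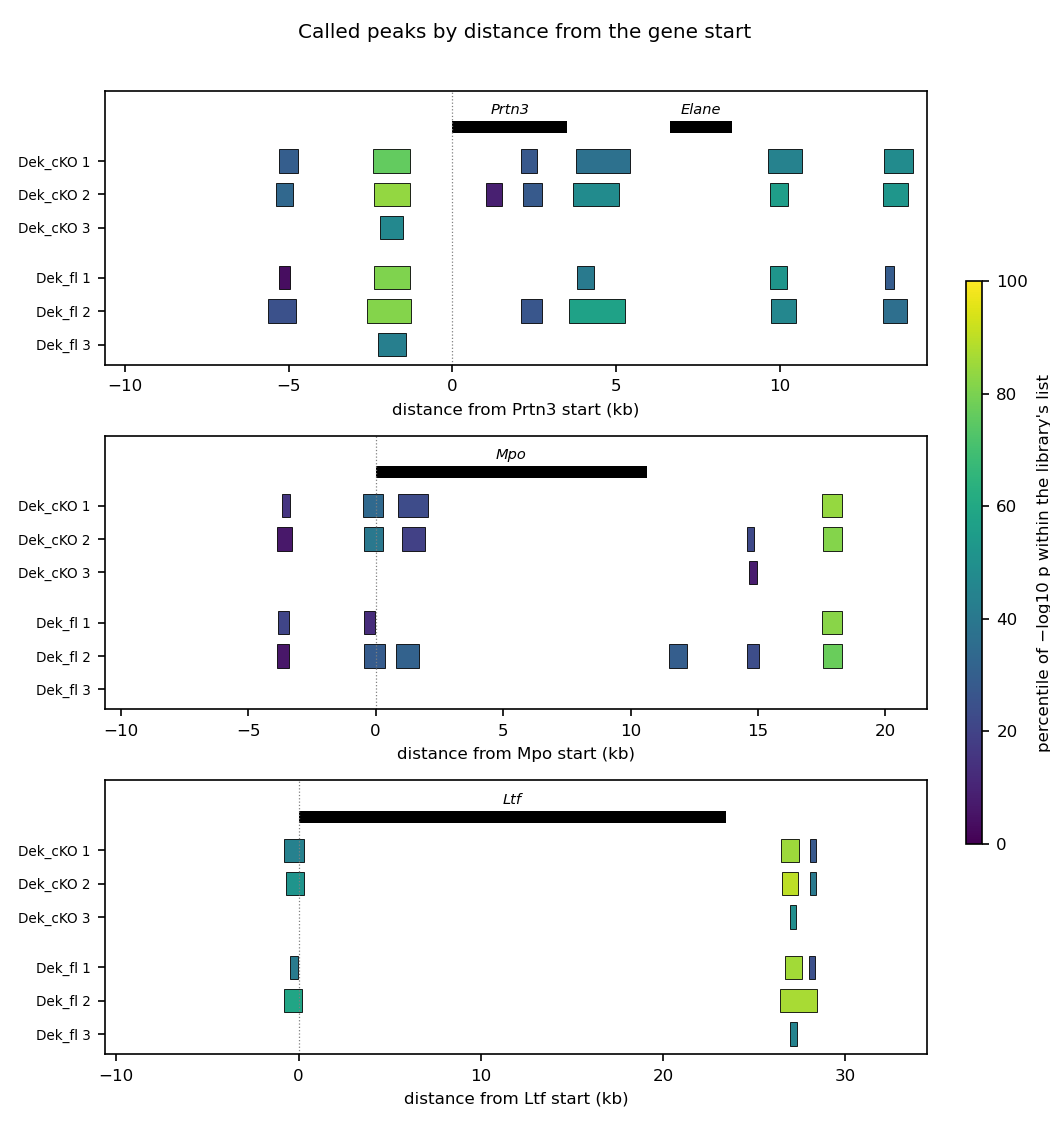
Called peaks around Prtn3 with Elane, Mpo and Ltf, by distance in kb from the start of the named gene, one row per library with Dek_cKO above Dek_fl, coloured by percentile of −log10 p within the list. The regions upstream of Prtn3 and beyond the end of Ltf appear in all 6 rows, while the starts of Mpo and Ltf appear in replicates 1 and 2 of both groups.

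Ctsg (gene ID 13035, chromosome 14, 56099885 to 56102574, minus strand) encodes cathepsin G. Its start was called in Dek_cKO replicate 1, with a −log10 p of 11.8, and in Dek_fl replicates 1 and 2, with 4.90 and 6.60, all with summits between -50 and -10 bp. A region upstream, from 56104998 to 56105997, was called in Dek_cKO replicates 1 and 3 with −log10 p of 16.6 and 28.3 and in Dek_fl replicates 2 and 3 with 10.2 and 14.5. Its percentiles of −log10 p were 40.6 and 66.3 in Dek_cKO and 23.2 and 34.0 in Dek_fl. Within replicate 3, cut to lists of equal length, they were 61.5 in Dek_cKO and 34.0 in Dek_fl. Past the end of the gene, a region from 56099011 to 56099484 was called in Dek_cKO replicates 1 and 2, with −log10 p of 15.4 and 23.6, and in Dek_fl replicate 1, with 4.93. At each of these 3 regions the called Dek_cKO peaks ranked above the called Dek_fl peaks, but libraries of each group were uncalled at each, so no test was run.

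Ly6c2 (gene ID 100041546, chromosome 15, 75108161 to 75112066, minus strand) encodes a GPI-anchored protein of the Ly6C antigen, high on classical monocytes. Its start was called in Dek_cKO replicates 1 and 2, from 75111611 to 75112085 and from 75111587 to 75112054, with summits at -26 and -4 bp from the first of its 2 listed starts. The folds were 3.96 and 3.75 and the −log10 p 9.83 and 7.69, at percentiles 21.9 and 16.0. Neither Dek_cKO replicate 3 nor any Dek_fl library had a peak there. Dek_fl replicate 3 had a single weak peak at -5713 bp and Dek_cKO replicate 1 one at -6983 bp. Near-identical neighbours exist in the Ly6 cluster, and how the authors placed reads that match several copies was not stated in the labels.

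**Figure D5:**
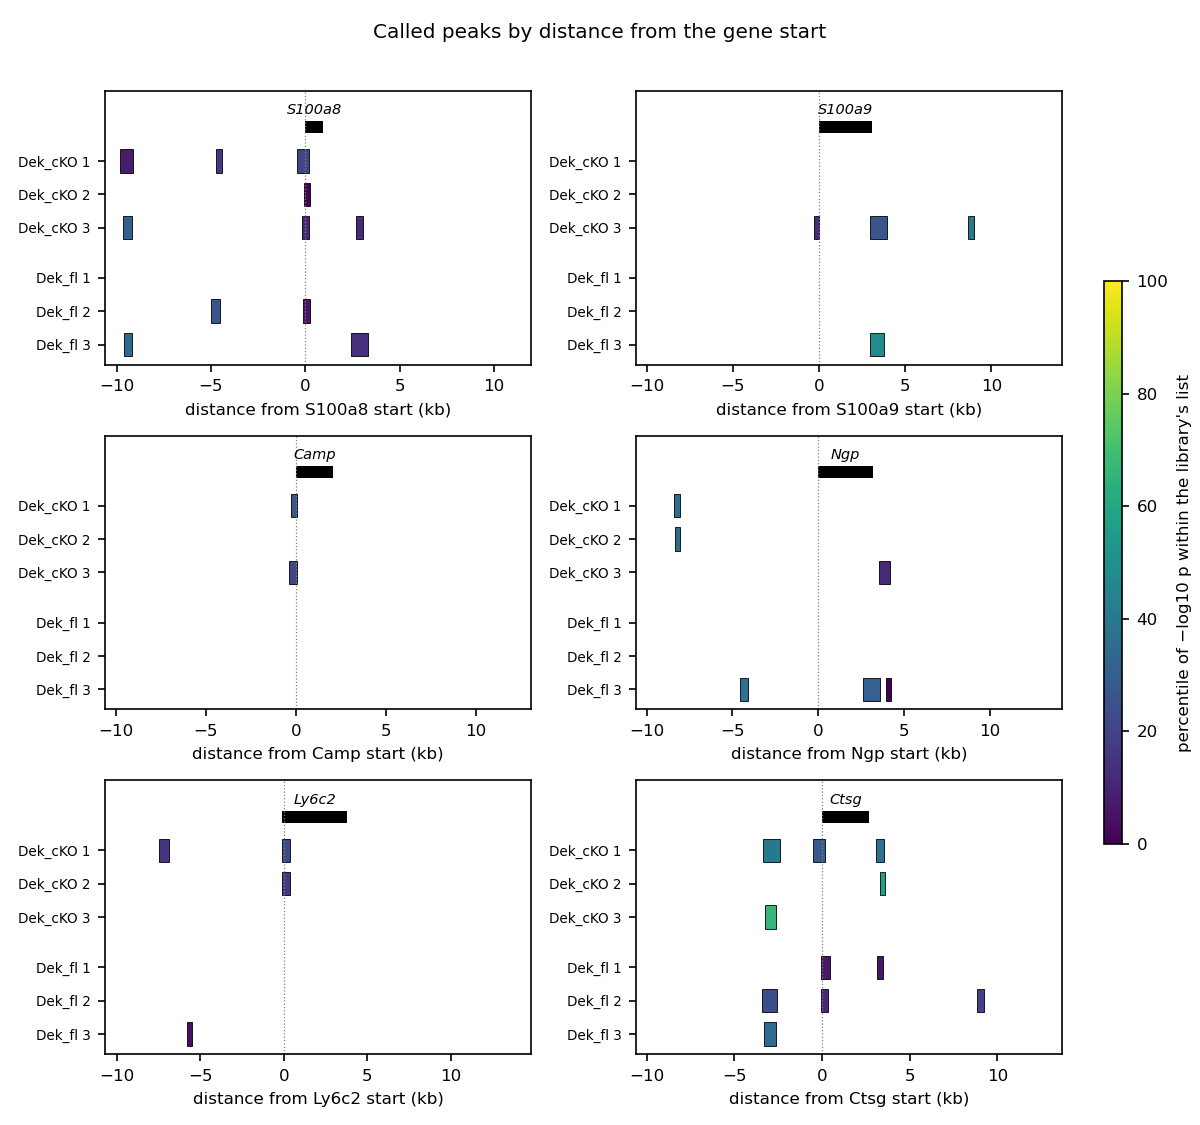
Called peaks around 6 genes by distance in kb from the gene start, one row per library with Dek_cKO above Dek_fl, coloured by percentile of −log10 p within the list. Peaks at the start of Camp and Ly6c2 appear in 2 Dek_cKO rows each and in no Dek_fl row, and those around S100a9 in the replicate 3 rows only.

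Calls at the starts were then compared between the groups. More Dek_cKO than Dek_fl libraries called the starts of S100a8 (3 against 1), Camp (2 against 0), Ly6c2 (2 against 0) and S100a9 (1 against 0). Fewer did so at Ctsg (1 against 2), and the counts were equal at Ltf and Mpo (2 against 2). So 4 of 10 members leaned toward Dek_cKO and 1 toward Dek_fl, beside 6.15% and 2.81% of all protein-coding starts. Most starts are called in all libraries or in none: of the 2988 starts called in 1 to 5 libraries, 35.5% leaned toward Dek_cKO and 16.2% toward Dek_fl, against 4 and 1 of the 7 such members. The starts of Camp and Ly6c2 were called in at least 2 Dek_cKO and no Dek_fl libraries, as were 58 of all 17274 starts (0.336%). The opposite held for 0 members and for 3 of all starts (0.0174%). Starts of both kinds lie within the 2988 called in 1 to 5 libraries, so these shares would be larger among those. These directions hold for the labels as given and would turn with them. This rule was set after the calls at Camp and Ly6c2 had been seen. In bulk chromatin, more cells open at a site and more cutting per open cell cannot be told apart.

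The mean number of members with a called start was 4.33 ± 1.53 in Dek_cKO and 2.33 ± 2.08 in Dek_fl (SD, n = 3 each), a difference of 2 beside a pooled SD of 1.83. The groups overlapped, and between libraries of the same number the difference was 3, 0 and 3 for replicates 1, 2 and 3. Its mean was 1.5 within replicates 1 and 2. No test was run on this count. The members with any peak in the window numbered 8.67 ± 0.577 in Dek_cKO and 6.33 ± 1.53 in Dek_fl, a difference of 2.33, with 3 within replicates 1 and 2 and 1.0 within replicate 3. The lowest Dek_cKO library and the highest Dek_fl library both had 8. At each replicate number Dek_cKO had more peaks in all, and the part of list length in these differences was not tested. Per 10000 peaks the windows held 3.42 ± 0.922 peaks in Dek_cKO and 3.11 ± 0.947 in Dek_fl.

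When every list was cut to its strongest 23809 peaks by −log10 p, nearly all start calls were gone. The members with a called start were 0, 0 and 2 in Dek_cKO replicates 1, 2 and 3, and 0 in each Dek_fl library. The 2 were S100a9 and Camp in Dek_cKO replicate 3, at percentiles of −log10 p of 0.903 and 9.98. Over all protein-coding genes with a listed start, the share in these lists was 54.6%, 53.7% and 52.1% in Dek_cKO. In Dek_fl it was 54.4%, 54.6% and 54.0%. The start peaks of Ly6c2, S100a8, Ltf, Mpo and Ctsg, and the Camp peak of Dek_cKO replicate 1, were not among the strongest 23809. In these lists 0.203% of protein-coding starts were called in at least 2 Dek_cKO and no Dek_fl libraries and 0.515% the other way round, and 0 of them were members. The members with a peak in the window then numbered 4, 4 and 7 in Dek_cKO and 4, 4 and 8 in Dek_fl, so the difference turned to -0.333. Of protein-coding genes of at most 25 kb, 60.6%, 60.2% and 58.2% had such a peak in Dek_cKO and 60.2%, 60.7% and 59.3% in Dek_fl. The members' share was below this in replicates 1 and 2 of both groups and above it in replicate 3 of both.

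Of the regions in the members' windows, 0 were called by every library of one group and missing from every library of the other. Over all regions this held for 0.104% toward Dek_cKO and 0.00355% toward Dek_fl. At the looser rule of at least 2 Dek_cKO and no Dek_fl libraries, 3 of the 33 regions (9.09%) were counted: the promoters of Camp and Ly6c2 and the region upstream of Ngp. The share over all regions was 3.19%. In the other direction it was 0 of 33, against 0.344% over all regions. In the equal-length lists both counts were 0 of 14 regions, against 1.32% toward Dek_cKO and 1.52% toward Dek_fl.

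The rank of the 2 regions called in every library was tested within all 19683 such regions. Within each library the folds were ranked and the ranks put on a normal scale, and limma compared these scores. The region upstream of Prtn3 scored -1.67, -1.20 and -1.56 in Dek_cKO replicates 1, 2 and 3 and -0.85, -1.41 and -1.54 in Dek_fl, a difference of -0.21 (SE 0.32, limma adjusted p = 1.0, lower in 2 of 3 same-numbered pairs). The region beyond Ltf scored 0.29, 0.76 and -0.46 in Dek_cKO and 0.42, 0.17 and -0.94 in Dek_fl, a difference of 0.32 (SE 0.45, limma adjusted p = 1.0, higher in 2 of 3 pairs). Both differences were smaller than their SE in this fit. The first turned to 0.0075 without Dek_fl replicate 1, and the second to -0.073 without Dek_fl replicate 3. Over all shared regions limma called 0% higher and 0% lower in Dek_cKO, with 68 higher and 19 lower at an unadjusted p under 0.05. These are fewer than the 0.05 share that would fall there if no region differed. The fit has no term for replicate number, so that spread stays in its error. At the same unadjusted limit, a batch term gave 545 higher and 302 lower, and a replicate block 585 and 289. Those counts are larger but also below the 0.05 share, so they show no excess of changed regions. The 0% does not show that no region differed either. By adjusted p, 1 region was higher and 0 lower with the replicate block, and it was not one of the 2 regions in the members' windows.

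Markers of other blood cells were read in the same lists. A peak within 1 kb of either gene end was called for 5, 4 and 3 of 10 neutrophil markers in Dek_cKO replicates 1, 2 and 3 and for 3, 5 and 2 in Dek_fl. Mmp8 and Csf3r had such a peak in all 6 libraries, Cxcr2, Mmp9 and Itgam in 3 each, Lcn2 in 1, and Retnlg, Ly6g, Cd177 and Fpr1 in 0. Within the gene or 10 kb of it, a peak was present for 9, 9 and 6 of the 10 in Dek_cKO and for 9, 9 and 7 in Dek_fl. Of 8 monocyte markers 7, 7 and 4 were called in Dek_cKO and 6, 7 and 3 in Dek_fl. Of 6 B cell markers 5, 5 and 1 were called in Dek_cKO and 2, 5 and 0 in Dek_fl, and of 6 T cell markers 3, 4 and 1 in Dek_cKO and 2, 3 and 0 in Dek_fl. Of 6 erythroid markers 5, 5 and 4 were called in Dek_cKO and 4, 5 and 3 in Dek_fl. Of 5 endothelial markers 4, 4 and 2 were called in Dek_cKO and 4, 4 and 3 in Dek_fl. Over all protein-coding genes, the share with a peak at either gene end was 67.4%, 67.6% and 52.0% in Dek_cKO and 63.6%, 67.7% and 51.4% in Dek_fl. Within the gene or 10 kb of it, the share was 81.1%, 81.2% and 68.9% in Dek_cKO and 78.6%, 80.9% and 67.4% in Dek_fl. Other cells in the sort were not tested for their part in the members' calls.

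A list of 40 other genes of neutrophils and monocytes gave the setting for the 10; it shares genes with the neutrophil and monocyte markers. All 40 matched the gene table, and a peak within 1 kb of either gene end was called for 28, 28 and 18 of them in Dek_cKO replicates 1, 2 and 3 and for 24, 28 and 14 in Dek_fl. The shares were 70.0%, 70.0% and 45.0% in Dek_cKO and 60.0%, 70.0% and 35.0% in Dek_fl, beside 67.4%, 67.6% and 52.0% of all protein-coding genes in Dek_cKO and 63.6%, 67.7% and 51.4% in Dek_fl. Measured the same way, 7, 6 and 4 of the 10 members were called in Dek_cKO and 4, 5 and 2 in Dek_fl. A gene-end region called in all 6 libraries was found for 14 of the 40. The matching share of all protein-coding genes was not counted, so this is not read as few or many. Of the 14, 0 ranked higher and 0 lower by limma, with 0 at an unadjusted p under 0.05. Their median rank score difference was 0.073, beside -0.018 over all shared regions.

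None of the 14 passed the test. Those with a positive difference (Dek_cKO minus Dek_fl) and the smallest p were Anxa1, an annexin (0.40, SE 0.53), Cd14, the lipopolysaccharide co-receptor (0.26, SE 0.35), Ncf4, an NADPH oxidase subunit (0.30, SE 0.40), Serpinb1a, an elastase inhibitor (0.16, SE 0.39) and Irf8, a monocyte-lineage factor (0.12, SE 0.37). Those with a negative difference were Cyba, the membrane subunit of the oxidase (-0.34, SE 0.30), Pglyrp1, a peptidoglycan recognition protein (-0.37, SE 0.35), Mgst1, a glutathione transferase (-0.34, SE 0.46), Klf4, a transcription factor of monocytes (-0.18, SE 0.31) and Mmp8, neutrophil collagenase (-0.12, SE 0.35). All 10 had a limma adjusted p of 1.0.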

How the data were processed

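ATAC-seq peak lists of 6 libraries, 3 labelled Dek_cKO and 3 labelled Dek_fl, were analysed. Per the submitters' processing notes, the authors used Bowtie2, Picard and MACS2 with build mm10; versions, settings, Tn5 shifting and pooling: not given in the sources used here. The deposited lists, 1 per library, give for each peak a score, a fold over local background, a −log10 p and a −log10 q, and the summit position. In the deposited files of replicates 1 and 2, 100% of the scores equalled 10 times −log10 q within 1 unit, and in replicate 3 100% equalled 10 times −log10 p, so replicate number also marks a processing batch that holds both groups. These ratios and scores are the authors' own and were used only to rank, filter and describe peaks within a list. Depth is unknown, so no interval is given.

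Peaks on chromosomes 1 to 19 and X were placed on the RefSeq gene table and listed starts of GRCm38.p6, 1-based. A percentile is the rank of a peak within its list. Peaks sharing at least 1 bp were merged, and normal scores of fold ranks were compared with limma 3.58.1 (R 4.3.3, Benjamini-Hochberg over all shared regions, threshold 0.05). The code of the fit was run on simulated data with no batch and less spread between libraries than at the regions reported here. That run does not show what size of difference could be found in these data. Python 3.11.15 was used for the rest. No p is given for scores over the members. The members, gene lists and motifs were chosen with earlier results of these data known. The text names all 10 members, neighbours at their peaks and up to 5 of the 40 other genes per direction by smallest p. Deviations from the group means of same-numbered libraries correlated at 0.27, 0.52 and 0.74 for replicates 1, 2 and 3. Each was over 0.1, so the numbers were also used as a block. This pairing comes from the data, as the labels do not say what a number marks. Dek_cKO replicate 1 correlated more with Dek_fl replicate 2 (0.57), and Dek_fl replicate 1 more with Dek_cKO replicate 2 (0.31). Deviations within a group cancel out, so a distinct replicate 3 in both groups makes replicates 1 and 2 correlate whatever their numbers. The correlations thus do not show that replicates 1 and 2 are paired by number. Alternatives were ranks of −log10 p, the replicate block, a batch term, equal-length lists, a −log10 q of at least 10, merging at 100 bp, windows of 2 kb and leaving out each library.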

Additional observations from a re-analysis of the deposited data

How the results depend on the processing

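Over all shared regions, the rank test gave 0 regions higher and 0 lower in Dek_cKO under ranks of −log10 p, a batch term, equal-length lists, a −log10 q of at least 10, merging at 100 bp and leaving out each library (0 to 0). With the replicate block it gave 1 higher and 0 lower, and the block changed no call among the members' regions. The rank score difference of the region beyond Ltf turned to -0.0424 by −log10 p and to -0.0727 without Dek_fl replicate 3 (-0.0727 to 0.601 without one library). That of the region upstream of Prtn3 turned to 0.00754 without Dek_fl replicate 1 (-0.347 to 0.00754). The cause was not tested. Regions called in one group only, 88 for Dek_cKO and 3 for Dek_fl, numbered 40 and 72 in equal-length lists and 51 and 1 at a −log10 q of at least 10. They numbered 2555 and 282 in replicates 1 and 2 alone and 6148 and 2864 in replicate 3 alone, where fewer libraries must agree. Leaving out one library gave 95 to 2492 and 4 to 275, with 2492 and 753 for Dek_cKO without Dek_cKO replicate 3 and Dek_fl replicate 2, and 275 and 18 for Dek_fl without Dek_fl replicates 3 and 1. In the members' windows the counts of 0 and 0 became 2 and 0 in replicates 1 and 2 alone, 5 and 2 in replicate 3 alone, and 0 to 2 and 0 to 0 when one library was left out. The number of regions differs between these settings and was not counted, so no share is given beside that of all regions. The difference in members with a peak, 2.33 (Dek_cKO minus Dek_fl), was -0.333 in equal-length lists, 1.0 at a −log10 q of at least 10, 1.0 in replicate 3 alone and 1.67 to 3.17 without one library. For called starts it was 2.0, with 0.667 both in equal-length lists and at a −log10 q of at least 10, and 0.833 (without Dek_fl replicate 3) to 2.83 without one library; these alternatives were added after seeing the data. For peaks in the windows it was 4.0, with -0.667 in equal-length lists and 1.5 (without Dek_cKO replicate 1) to 7.0 (without Dek_cKO replicate 3). Per 10000 peaks it was 0.31, with -0.28 in equal-length lists and -0.187 to 0.855 without one library, turning to -0.187 without Dek_cKO replicate 3 and to -0.00587 without Dek_fl replicate 1. The unknown number of reads limits every call, and differences at peaks near a list's threshold were not detectable as more than a call or its absence.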

Other observations

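The calls in the members' windows also differed between replicate numbers. Of the 33 regions, 7 were called in replicate 3 lists only, 19 in replicates 1 and 2 only, and 7 in both. The replicate 3 lists held 4.42 (Dek_cKO) and 4.20 (Dek_fl) window peaks per 10000, against 3.25 and 2.60 in Dek_cKO replicates 1 and 2 and 2.48 and 2.66 in Dek_fl replicates 1 and 2. In lists of equal length replicate 3 had 8 and 10 window peaks in Dek_cKO and Dek_fl, and the other 4 libraries had 3 each. Those 3 were the regions upstream of Prtn3, in Lpo beside Mpo, and beyond the end of Ltf in each of the 4. Peaks at S100a9 and around the end of Ngp were seen in the replicate 3 lists alone, and those at the starts of Mpo and Ltf in the other 4 libraries only. Other regions were called in other sets of libraries: the region upstream of Ngp was called in Dek_cKO replicates 1 and 2, the start of Camp in Dek_cKO replicates 1 and 3, and the region upstream of Ctsg in both replicate 3 lists and in Dek_cKO replicate 1 and Dek_fl replicate 2. Of the neutrophil markers in the equal-length lists, 6 (Dek_cKO) and 7 (Dek_fl) of 10 had a peak in their window in replicate 3, against 6 and 6 in Dek_cKO replicates 1 and 2 and 6 and 5 in Dek_fl replicates 1 and 2. Over all protein-coding genes the share was 68.4%, 68.3% and 66.6% in Dek_cKO replicates 1, 2 and 3 and 68.2%, 68.6% and 67.4% in Dek_fl. The replicate 3 lists were made with another threshold. They also reached a highest −log10 p of only 299 in both groups, against 22783 to 26223 in the other 4 lists. The part of either in the differences between replicate numbers was not tested.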
